A study of Mus musculus with 2 samples.

Results

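The immunoglobulin variable genes, named Ighv for the heavy chain, Igkv for the kappa light chain and Iglv for the lambda light chain, were examined in islet leukocytes of NOD mice. A gene was taken as a member when its symbol began with Ighv, Igkv or Iglv and when it had at least 10 unique molecular identifiers (UMIs, counts of distinct captured transcripts) summed over both libraries. This gave 150 members of the 348 V genes among 32285 annotated genes: 78 of 185 heavy, 69 of 160 kappa and 3 of 3 lambda genes. A further 131 V genes had 0 UMIs and 67 had between 1 and 9. Just inside the limit lay Ighv1-71, Ighv13-2 and Ighv2-9 with 10 UMIs each, and just outside it lay Ighv11-2, Ighv2-4 and Igkv6-17 with 9 each and Igkv5-37 with 8. All 150 members matched an entry of the GENCODE M21 annotation, in which 4 kappa members are pseudogenes (Igkv9-119, Igkv2-116, Igkv4-56 and Igkv12-40) and the other 146 are V genes.

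An antibody V region is built by joining a V gene to short D and J segments (heavy chain) or to a J segment (light chains) in each developing B cell, so that one B cell as a rule uses 1 heavy and 1 light V gene. Cells that descend from one B cell inherit its V genes. Naive B cells as a population use many V genes, while activated B cells multiply and mature into plasma cells, which secrete antibody and hold far more immunoglobulin transcript than B cells. In NOD mice, a strain that spontaneously develops autoimmune diabetes, B cells enter the inflamed islets together with T cells. Cxcl16 encodes a membrane-bound and secreted chemokine.

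The 2 groups were WT NOD and NOD.Cxcl16-/-, both females aged 12 weeks, each measured as 1 library of live CD45+CD31- cells sorted from hand-picked islets, with 10x Genomics 3' chemistry. The labels do not give the number of animals behind a library. With 1 library per group there was no replicate, so no test was made between the libraries, and every interval below is a 95% interval that covers the counting of cells or UMIs only. The library labelled NOD.Cxcl16-/- held Cxcl16 transcript at 102 CPM (UMIs scaled to an equal library total) against 103 in WT NOD, so the transcript did not separate the labels, and the part of the gene that was deleted is not given in the labels. The libraries held 13859 and 10554 barcodes with median totals of 3808 and 5054 UMIs, of which 10715 and 9323 were kept, and 45 barcode sequences occurred in both. V members accounted for 43345 UMIs (463 CPM) in WT NOD and 51378 UMIs (521 CPM) in the other.

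B cells were barcodes with at least 2 Cd79a and at most 9 Jchain UMIs, and plasma cells were barcodes with at least 10 Jchain and 3 Mzb1 UMIs. Cd79a is a signalling subunit of the B-cell receptor, Jchain links IgM and IgA subunits, and Mzb1 is an endoplasmic reticulum chaperone of antibody secretion. After removal of low-quality barcodes and predicted doublets, WT NOD kept 2313 B cells and 178 plasma cells, and the library labelled NOD.Cxcl16-/- kept 2289 and 265. Some markers that the rule did not use were set beside the class names. Ms4a1, the B-cell surface protein CD20, was detected in 77.2% and 90.8% of B cells, and in 25.3% and 49.1% of plasma cells. Pax5, the B-lineage transcription factor, was detected in 45.1% and 55.0% of B cells and in 2.25% and 11.7% of plasma cells. Sdc1, the plasma cell surface protein CD138, was detected in 53.4% and 61.5% of plasma cells against 0.562% and 1.00% of B cells. Tnfrsf17, the plasma cell survival receptor BCMA, was detected in 34.8% and 38.1% against 0.0865% and 0.0874%. Other listed markers separated the classes less well. The plasma cell marker Irf4 was at 115 and 103 CPM in B cells and at 86.1 and 72.5 CPM in plasma cells. Prdm1, another plasma cell marker, was detected in 20.8% and 56.2% of plasma cells. The B-cell markers Cd79b and Ebf1 were detected in 62.9% and 80.0%, and in 33.1% and 51.3%, of plasma cells.

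The plasma cells of the libraries stood apart in depth. Their median total was 4876 UMIs in WT NOD and 26852 in the other, whereas B cells had 4094 and 4683. Before doublets were removed the medians were 18381.5 and 28523.5, since 66 of 244 plasma barcodes of WT NOD and 47 of 312 of the other were predicted to be doublets. Mki67, a marker of dividing cells, was detected in 13.5% and 42.6% of plasma cells. Over the 6 T-cell markers, 60.7% and 47.2% of plasma cells had 2 or more UMIs, and over the 7 myeloid markers 63.5% and 94.0% did. Among the B cells these shares were 22.4% and 9.74% for the T-cell list, and 47.8% and 61.0% for the myeloid list, within which Cst3 was detected in 72.1% and 81.0% of B cells and Csf1r, a myeloid growth factor receptor, in 0.605% and 2.71%. In plasma cells Csf1r was detected in 0.562% and 20.4%. Leaving such barcodes out was possible for B cells, as the closing section gives, but left under 20 plasma cells with a leading gene, so the part of these markers in the plasma cell results was not tested.

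The V exons of the genes on which the results turn are given here, because a 3' library reads only as much of the V exon as reaches it from the far end of the transcript and names the gene by its match to this reference. The reference is that of the C57BL/6J mouse, whose V genes can differ from those of NOD mice, and the effect of this on the naming of genes was not tested. Each line gives the last 300 bases of the V exon, 5' to 3' in the direction of transcription, from the GENCODE M21 transcripts of build GRCm38, and the capitals mark the last in-frame cysteine codon, which in V genes begins the third complementarity-determining region. Ighv3-6 and Igkv3-10 were the leading genes of plasma cells in the library labelled NOD.Cxcl16-/-, Ighv1-9 and Igkv1-132 led plasma cells of both libraries, and Iglv1 had the most UMIs of all members.
Ighv3-6 (chr12:114288152-114288451, minus strand): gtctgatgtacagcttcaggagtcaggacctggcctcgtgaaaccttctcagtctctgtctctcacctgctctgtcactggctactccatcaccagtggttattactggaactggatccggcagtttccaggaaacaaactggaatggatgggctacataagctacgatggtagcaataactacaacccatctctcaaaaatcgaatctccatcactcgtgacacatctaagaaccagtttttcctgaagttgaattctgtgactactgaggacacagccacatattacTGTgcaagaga
Igkv3-10 (chr6:70572931-70573230, plus strand): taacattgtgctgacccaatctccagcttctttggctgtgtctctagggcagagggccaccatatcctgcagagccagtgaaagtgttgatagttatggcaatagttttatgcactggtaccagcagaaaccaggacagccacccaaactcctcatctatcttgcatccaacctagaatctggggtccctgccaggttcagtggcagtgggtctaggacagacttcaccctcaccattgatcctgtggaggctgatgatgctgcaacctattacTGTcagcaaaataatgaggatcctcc
Ighv1-9 (chr12:114583569-114583868, minus strand): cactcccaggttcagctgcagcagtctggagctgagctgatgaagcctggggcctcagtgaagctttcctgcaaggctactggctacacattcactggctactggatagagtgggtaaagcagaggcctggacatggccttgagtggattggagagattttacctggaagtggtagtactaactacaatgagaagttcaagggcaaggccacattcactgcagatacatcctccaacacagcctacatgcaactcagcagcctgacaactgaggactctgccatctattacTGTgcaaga
Igkv1-132 (chr6:67760114-67760413, plus strand): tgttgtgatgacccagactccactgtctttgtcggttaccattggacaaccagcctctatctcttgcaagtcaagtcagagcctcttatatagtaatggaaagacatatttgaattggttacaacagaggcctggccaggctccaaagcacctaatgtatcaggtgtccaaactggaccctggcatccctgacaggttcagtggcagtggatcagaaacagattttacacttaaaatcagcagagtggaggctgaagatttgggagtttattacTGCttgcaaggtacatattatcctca
Iglv1 (chr16:19085017-19085316, minus strand): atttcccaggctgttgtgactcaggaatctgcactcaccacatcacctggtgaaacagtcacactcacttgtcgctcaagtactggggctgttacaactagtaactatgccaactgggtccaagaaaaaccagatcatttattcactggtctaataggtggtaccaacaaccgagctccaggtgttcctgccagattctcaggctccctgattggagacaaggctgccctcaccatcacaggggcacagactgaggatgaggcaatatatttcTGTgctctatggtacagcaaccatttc

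Many V genes are near copies of each other, which limits how surely a read can be given to one. Of the members, 51 of 78 heavy, 32 of 69 kappa and 2 of 3 lambda genes had another V gene with at least 95% identity over the V exon. The nearest gene to Ighv3-6 was Ighv3-1 with 93.5% identity, the nearest to Ighv1-9 was Ighv1-62-1 with 90.8%, and the nearest to Igkv1-132 was Igkv1-131 with 94.9%. Igkv3-10 had a nearer copy, Igkv3-5 with 98.1%, and Iglv1 and Iglv2 were 97.0% identical. Cells whose kappa UMIs were split between genes often held 2 genes of close sequence: of 27 plasma cells of WT NOD with a gene of 5 or more UMIs but no gene above the 75% share defined below, 6 were split between Igkv1-133 and Igkv1-135 and 4 between Igkv10-94 and Igkv10-96. In the library labelled NOD.Cxcl16-/- the numbers were 9 and 12 of 52. The closing 90 aligned bases of both pairs are printed because these cells were left without a leading gene. Capitals mark the bases that differ, 5 in the former pair and 12 in the latter.
Igkv1-133 (chr6:67725572-67725661, plus strand): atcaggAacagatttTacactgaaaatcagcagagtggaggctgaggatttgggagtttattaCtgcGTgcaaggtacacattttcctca
Igkv1-135 (chr6:67610419-67610508, plus strand): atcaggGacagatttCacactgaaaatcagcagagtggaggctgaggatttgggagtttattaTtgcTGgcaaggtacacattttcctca
Igkv10-94 (chr6:68704508-68704597, minus strand): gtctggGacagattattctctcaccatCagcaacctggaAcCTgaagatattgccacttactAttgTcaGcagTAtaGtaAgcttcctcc
Igkv10-96 (chr6:68631963-68632052, minus strand): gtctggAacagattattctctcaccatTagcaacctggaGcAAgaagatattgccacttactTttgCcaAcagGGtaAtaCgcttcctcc

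V gene UMIs were concentrated in plasma cells. The kept plasma cells held 58.9% of the V UMIs of WT NOD and 76.7% of those of the other, and the kept B cells held 4.74% and 4.79%. Plasma barcodes removed as predicted doublets held a further 31.4% and 16.4%. At least 1 heavy V UMI was found in 86.5% (80.6% to 91.2%) and 93.2% (89.5% to 95.9%) of plasma cells, and at least 1 kappa V UMI in 84.8% (78.7% to 89.8%) and 98.1% (95.7% to 99.4%). In B cells the heavy shares were 24.3% (22.6% to 26.1%) and 27.9% (26.1% to 29.8%), and the kappa shares 28.4% (26.6% to 30.3%) and 32.0% (30.1% to 33.9%). T cells, which do not express these genes, were set beside these shares as a background. They were barcodes with at least 2 Cd3e UMIs, no Cd79a UMI and fewer than 10 Jchain UMIs. Barcodes that held Cd79a or much Jchain were thus left out by rule, which may lower this background, and its source was not tested. Of 4422 and 3958 T cells, 0.814% and 0.935% had a heavy V UMI and 1.88% and 1.59% a kappa V UMI, at median totals of 4707.5 and 5299.5 UMIs. When every cell was thinned to 2000 UMIs, the heavy shares were 14.1% and 13.5% in B cells, 82.1% and 69.0% in plasma cells and 0.248% and 0.233% in T cells. B cells of both libraries thus gave overlapping intervals at equal depth, 12.6% to 15.8% and 12.1% to 15.0%, and thinning left out 448 and 95 B cells and 44 and 17 plasma cells with fewer UMIs.

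A cell was given a leading V gene of a chain when 1 gene had at least 2 UMIs and at least 75% of the cell's V UMIs of that chain. This named a heavy gene in 156 and 142 B cells and in 131 and 219 plasma cells, and a kappa gene in 154 and 180 B cells and in 96 and 178 plasma cells. Few B cells were thus named (6.74% and 6.20% for the heavy chain) and most plasma cells were (73.6% and 82.6%). Each cell counts once, so a plasma cell with very many V UMIs weighs no more than a B cell with 2. Where lambda genes were pooled with kappa genes, the leading light gene of many plasma cells became Iglv1 or was lost, as described further below, and the light chain is therefore given mainly for kappa genes alone, a choice made after the data were seen.

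In B cells the V genes were spread widely. The 156 and 142 cells with a leading heavy gene used 53 and 52 heavy genes, 41 of them in both libraries. The effective number of genes, which is the number of equally used genes that would give the same Shannon entropy, was 38.5 (34.0 to 43.5) in WT NOD and 41.9 (37.6 to 46.6) in the other. For kappa genes it was 27.2 (23.8 to 31.1) and 25.7 (22.7 to 29.2), over 40 genes in each library, and for the lambda and kappa genes pooled 28.4 and 26.8. The intervals of the libraries overlapped for each chain. The 5 most used genes held 29.5% and 26.1% of the heavy-named B cells and 39.6% and 40.6% of the kappa-named ones.

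The heavy gene with the highest mean share in B cells was Ighv2-2, led by 14 of 156 cells, 8.97% (4.99% to 14.6%), in WT NOD and by 6 of 142, 4.23% (1.57% to 8.97%), in the other. Ighv9-3 followed with 11 cells, 7.05%, and 6 cells, 4.23%. Ighv5-4 led 7 and 9 cells, Ighv3-6 4 and 10, Ighv6-3 7 and 6, Ighv5-6 6 and 3, Ighv1-15 3 and 5, and Ighv1-50 5 and 3. The share of Ighv2-2 in WT NOD was the highest of these. Ighv2-2 and Ighv2-4, which missed the limit of 10 UMIs, are 98.0% identical.

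Among kappa genes of B cells, Igkv6-20 led 17 of 154 cells, 11.0% (6.56% to 17.1%), and 16 of 180, 8.89% (5.17% to 14.0%). Igkv12-46 led 14 and 18 cells, 9.09% and 10.0%. Igkv17-127 led 16 cells, 10.4% (6.06% to 16.3%), in WT NOD and 7, 3.89% (1.58% to 7.85%), in the other, and Igkv8-24 led 4 cells, 2.60% (0.712% to 6.52%), and 17, 9.44% (5.60% to 14.7%). Igkv5-45 led 7 and 11 cells, Igkv1-135 7 and 9, Igkv12-44 7 and 8, and Igkv3-1 6 and 8. For no V gene with at least 10 B cells in a library did the intervals of the libraries lie apart. The summed overlap of the shares, 100% for identical use, was 60.3% (49.9% to 70.7%) for heavy and 69.4% (59.2% to 79.7%) for kappa genes. At these cell numbers an overlap below 100% does not show a difference, since genes with 1 or 2 cells seldom recur.

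Counted by UMIs rather than cells, 102 V members had at least 10 UMIs in the B cells of both libraries together. In this scale 3 were at least 2-fold higher in the library labelled NOD.Cxcl16-/- and 1 was lower, on log2(CPM + 1). Of all 14053 genes tested in B cells, 2.95% were at least 2-fold higher and 0.342% lower, so the V members were near that background. They were Igkv1-132 with 31 (21.1 to 44.0) and 130 (109 to 154) UMIs, Ighv6-3 with 32 (21.9 to 45.2) and 128 (107 to 152), and Igkv8-24 with 24 (15.4 to 35.7) and 85 (67.9 to 105). The lower gene was Igkv6-32 with 39 (27.7 to 53.3) and 16 (9.15 to 26.0). A single barcode held 107 of the 128 Ighv6-3 UMIs and 77 of the 130 Igkv1-132 UMIs of the second library. With the barcode of most V UMIs of each library left out, Ighv6-3 had 32 and 21 UMIs, a log2 difference of -0.75, Igkv1-132 had 31 and 53, a log2 difference of 0.19, and 2 V members passed 2-fold. With a pseudocount of 5 CPM none of the 4 passed. No replicate check exists for these values, and the names of the 4 genes were taken after their values were seen.

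By cells with a leading gene, plasma cells used fewer genes than B cells of the same library. The effective number of heavy genes was 10.7 (8.79 to 13.0) in WT NOD and 21.0 (17.8 to 24.7) in the other, and that of kappa genes 9.93 (8.08 to 12.2) and 13.8 (11.5 to 16.5). All 4 values lay below the interval of the B cells of the same library, but the B-cell values depended on depth. At an equal number of 131 cells, the expected number of heavy genes was 49.2 and 50.7 in B cells and 21 and 35.1 in plasma cells. At 96 cells, the expected number of kappa genes was 33.7 and 31.6 in B cells and 17 and 23.6 in plasma cells. The intervals of the plasma cells of the libraries lay apart for heavy genes and overlapped for kappa genes. With predicted doublets kept, the effective number of heavy genes in WT NOD plasma cells was 15.5, against 22.4 in the other library, so the gap between the libraries was smaller. Thinned to 2000 UMIs, 27 and 32 B cells had a leading heavy gene, with effective numbers of 15.2 (12.0 to 19.3) and 19.7 (16.0 to 24.4), and plasma cells gave 11.0 (8.77 to 13.8) and 17.8 (14.4 to 21.8). The intervals of the classes then overlapped in both libraries. For kappa genes the thinned values were 17.8 (14.1 to 22.3) and 19.4 (16.3 to 23.1) in B cells and 12.4 (9.99 to 15.4) and 14.6 (11.9 to 18.0) in plasma cells, which overlapped too. At 27 thinned cells, the expected number of heavy genes was 18 and 20.1 in B cells and 11.7 and 14.7 in plasma cells. The thinned kappa values rest on 37 and 44 B cells and on 84 and 109 plasma cells. At 37 of these cells, the expected number of kappa genes was 22 and 21.1 in B cells and 14.6 and 16.1 in plasma cells. With a minimum of 3 UMIs, B cells of the library labelled NOD.Cxcl16-/- gave 20.5 heavy genes and its plasma cells 20.6. These values rest on 33 B cells and 208 plasma cells. In WT NOD the B cells then gave 22.3 (18.3 to 27.1), above the plasma cell interval of 8.53 to 13.0. At 33 such cells, the expected number of heavy genes was 22.1 and 23 in B cells and 12.5 and 17.5 in plasma cells. Without the cells of each library's most frequent pair, plasma cells of the library labelled NOD.Cxcl16-/- gave an effective number of 29.5 heavy genes.

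**Figure D1:**
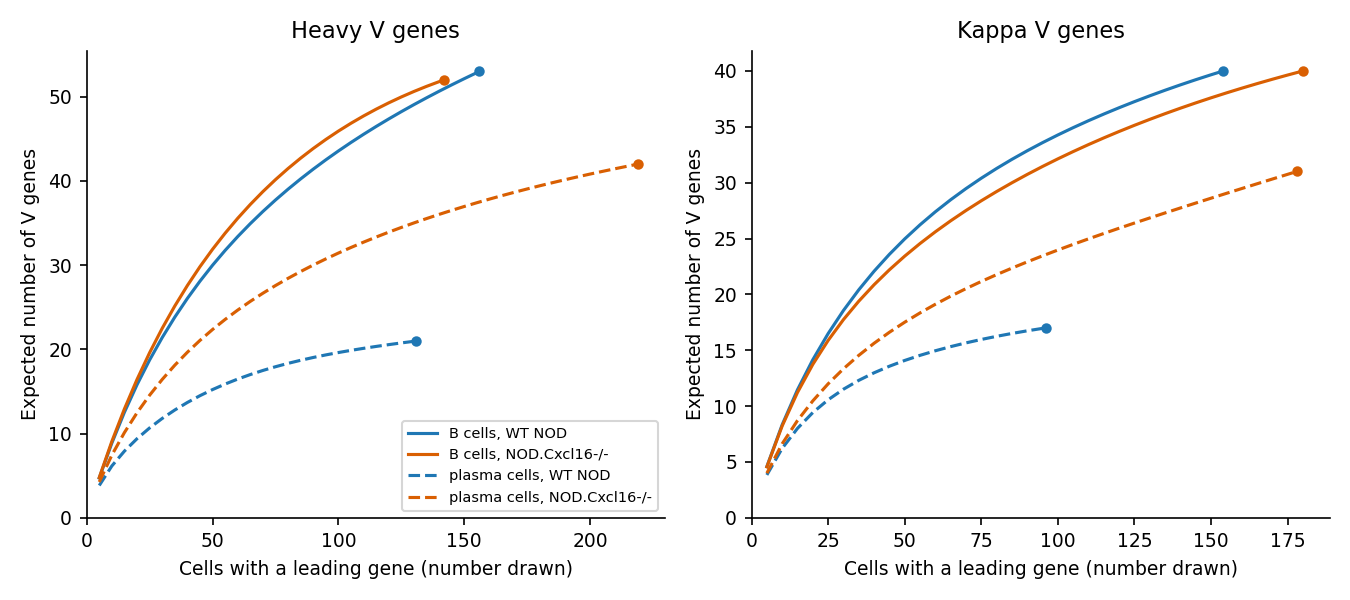
Expected number of V genes (vertical axis) among a given number of cells with a leading gene (horizontal axis), computed analytically, for heavy genes (left) and kappa genes (right). Solid lines are B cells, dashed lines plasma cells, colours are the libraries and dots mark the cells observed. The B-cell curves of the libraries run close together, and both plasma cell curves lie below them, with the WT NOD curve lowest at 21 heavy genes for 131 cells.

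The leading plasma cell genes differed between the libraries. In WT NOD plasma cells, Ighv9-3 led 39 of 131 cells, 29.8% (22.1% to 38.4%), and Ighv1-9 led 27, 20.6% (14.0% to 28.6%). Then came Ighv1-76 with 11 cells, 8.40%, Ighv1-19 with 10, 7.63%, and Ighv14-2 with 5, 3.82%. In the library labelled NOD.Cxcl16-/-, Ighv3-6 led 58 of 219 cells, 26.5% (20.8% to 32.9%), and was followed by Ighv1-9 with 16, 7.31% (4.23% to 11.6%), Ighv6-3 with 15, 6.85% (3.88% to 11.0%), and Ighv1-42 and Ighv3-8 with 9 each, 4.11%. The plot of shares by gene shows these values with their intervals.

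No kept WT NOD plasma cell had a UMI of Ighv3-6 or of Ighv6-3: both genes had 0 UMIs there, which allows a share of cells led of up to 2.78% each. In the other library they had 1792 (1710 to 1877) and 1315 (1245 to 1388) UMIs in plasma cells. B cells of both libraries did use them, Ighv3-6 in 4 of 156 and 10 of 142 cells and Ighv6-3 in 7 and 6. Of the 10 cells led by Ighv3-6, 4 were of the IgG2c antibody class, as were most plasma cells led by it. Ighv1-76 and Ighv1-19 were the reverse, with 0 of 219 plasma cells led in the library labelled NOD.Cxcl16-/- (up to 1.67%). Ighv9-3 led 7 cells there, 3.20% (1.29% to 6.47%), which was 9.31-fold below its WT NOD share, and the share of Ighv1-9 was 2.82-fold below. The intervals of these 6 heavy genes lay apart, as a size rule only, with no replicate library to set the spread.

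Among kappa genes, Igkv1-132 led 33 of 96 WT NOD plasma cells, 34.4% (25.0% to 44.8%), and Igkv16-104 10, 10.4% (5.11% to 18.3%). Igkv12-46 led 9, and Igkv1-133 and Igkv8-24 led 7 each. In the library labelled NOD.Cxcl16-/-, Igkv3-10 led 53 of 178 cells, 29.8% (23.2% to 37.1%), Igkv1-132 27, 15.2% (10.2% to 21.3%), Igkv8-24 11, and Igkv1-110 and Igkv4-53 10 each. No kept WT NOD plasma cell had an Igkv3-10 UMI, whereas the other library had 2103 (2014 to 2195). Igkv3-10 and Igkv1-132 were the kappa genes with at least 10 cells whose library intervals lay apart. The overlap of shares between the libraries was 28.3% (21.0% to 35.7%) for heavy genes and 36.0% (27.7% to 44.3%) for kappa genes, both below the lower ends of the B-cell intervals. At equal depth the intervals of the classes overlapped: thinned to 2000 UMIs, the overlap of heavy genes was 28.7% (12.1% to 45.3%) in B cells and 25.5% (17.1% to 33.9%) in plasma cells, and that of kappa genes 44.3% (26.2% to 62.5%) and 41.4% (30.7% to 52.0%).

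**Figure D2:**
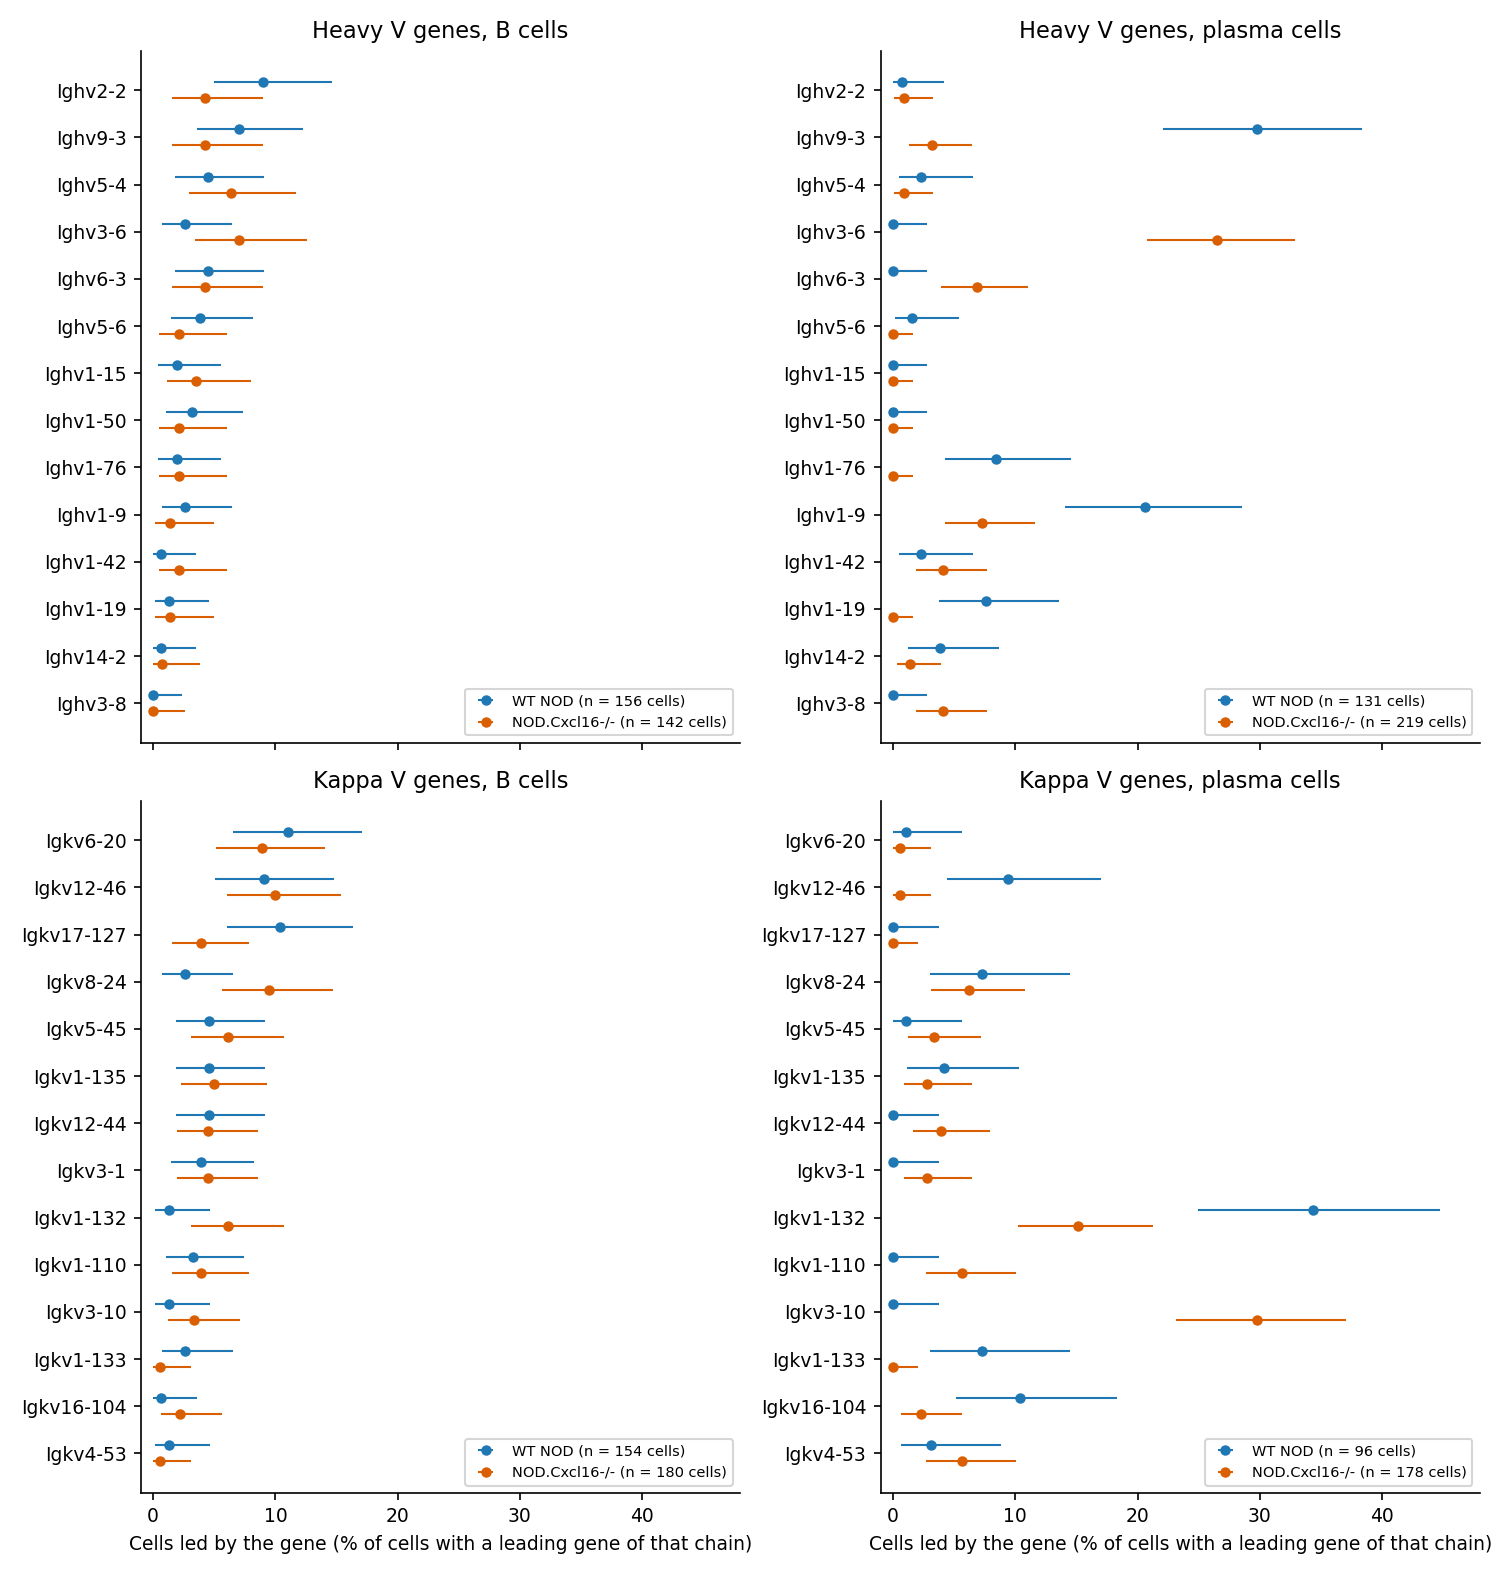
Share of cells led by each V gene (horizontal axis, percent of cells with a leading gene of that chain) for the most used heavy genes (top) and kappa genes (bottom), in B cells (left) and plasma cells (right). Points are shares in each library, lines are exact 95% intervals of cell counting. B-cell points lie at or below 11.0% and their intervals overlap between libraries, while Ighv9-3 reaches 29.8% and Igkv1-132 34.4% in WT NOD plasma cells and Ighv3-6 reaches 26.5% and Igkv3-10 29.8% in the other library.

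By UMIs, 52 of 109 V members with at least 10 UMIs in plasma cells were at least 2-fold higher in the library labelled NOD.Cxcl16-/- and 42 were lower. Over all 12168 genes tested in plasma cells, 26.2% were at least 2-fold higher and 1.38% lower. The V members thus passed 2-fold in both directions at shares of 47.7% and 38.5%, with a median log2 difference of 0.64 against 0.59 over all genes. A few cells with many UMIs set these sums: the 10 cells with the most heavy V UMIs held 41.4% of those of WT NOD plasma cells and 21.4% in the other library.

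Within each library, some genes were used more in plasma cells than in B cells and others less. In WT NOD, the shares of Ighv1-9 (20.6% against 2.56%), Ighv9-3 (29.8% against 7.05%), Igkv1-132 (34.4% against 1.30%) and Igkv16-104 (10.4% against 0.649%) were higher in plasma cells with intervals apart. In the other library this held for Ighv3-6 (26.5% against 7.04%) and Igkv3-10 (29.8% against 3.33%). Of the genes with the highest B-cell shares, some had low plasma cell shares and others did not. Igkv6-20 led 1 plasma cell in each library, Igkv17-127 led 0 in both, and Ighv2-2 led 1 and 2. Igkv12-46 led 9 of 96 WT NOD plasma cells, 9.38%, close to its 9.09% of B cells, but 1 of 178 plasma cells of the library labelled NOD.Cxcl16-/- against 18 of 180 B cells. Igkv8-24 held 7.29% and 6.18% of plasma cells. The overlap of heavy shares between B and plasma cells was 31.8% (23.5% to 40.2%) in WT NOD and 44.4% (35.6% to 53.3%) in the other, and for kappa genes 30.9% (22.6% to 39.3%) and 47.5% (38.7% to 56.3%).

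Grouped by sequence family, the Ighv1 family, the largest of the mouse heavy genes, led 41.0% and 47.9% of B cells and 54.2% and 45.7% of plasma cells. The Ighv2 family led 18.6% (12.8% to 25.6%) and 9.15% (4.97% to 15.1%) of B cells but 1 of 131 and 4 of 219 plasma cells. The Ighv9 family held 29.8% of WT NOD plasma cells, all of them Ighv9-3, and the Ighv3 family 30.6% of those of the other library. Of the kappa families, Igkv1 led 16.2% and 23.3% of B cells and 46.9% and 26.4% of plasma cells, and Igkv3 led 9.09% and 10.0% of B cells and 8.33% and 33.1% of plasma cells. The Igkv6 family led 16.2% and 11.1% of B cells and 3.13% and 5.62% of plasma cells. No member belonged to the families Ighv11, Ighv12, Ighv15, Ighv16, Igkv7, Igkv11, Igkv13 or Igkv20.

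Position in the locus was not used by the rule. The heavy locus lies on chromosome 12 and the kappa locus on chromosome 6, and V genes near and far from the J segments can be joined. Split into 3 sets of 26 heavy members by distance from the J segments, the nearest set (149 to 723 kb away) led 46.8% (38.8% to 54.9%) and 33.1% (25.4% to 41.5%) of B cells, the middle set 22.4% and 38.7%, and the farthest set (1690 to 2570 kb) 30.8% and 28.2%. In plasma cells the middle set, which holds Ighv3-6 at 858 kb and Ighv1-9 at 1154 kb, led 38.9% and 61.2%. Of the kappa members, 41 of 69 lie on the strand opposite to the J segments, and their joining inverts the DNA between. They led 53.2% and 54.4% of B cells and 29.2% and 36.0% of plasma cells. Igkv1-132 and Igkv3-10 lie on the same strand as the J segments.

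Cells with a leading gene of both chains show which heavy and kappa genes came together. This gave 15 and 19 paired B cells, in 15 and 18 different pairs, and 83 and 159 paired plasma cells. In WT NOD plasma cells 14 pairs were held by 2 or more cells and took up 74 of the 83 cells, 89.2%. In the other library 21 such pairs took up 120 of 159, 75.5%. The J and D segments and the junction are not read by these counts, so cells with the same pair cannot be called one clone, and the number of animals that contributed them is not known here.

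The most frequent pair of all was Ighv3-6 with Igkv3-10 in the library labelled NOD.Cxcl16-/-, in 49 of 159 paired plasma cells, 30.8% (23.7% to 38.6%), and in 0 of 83 of WT NOD. Of these 49 cells, 48 were IgG2c by the class rule given below, 12 had an Mki67 UMI and 20 an Sdc1 UMI. T-cell markers were held by 30 of the 49 cells and myeloid markers by 43. Their median total was 8293 UMIs, from 1374 to 99581, with medians of 16 Ighv3-6 and 13 Igkv3-10 UMIs. Of the 58 plasma cells led by Ighv3-6 and the 53 led by Igkv3-10, most were therefore the same cells. The pair was also held by 2 of the 19 paired B cells of that library, both IgG2c. No cell of the pair carried a barcode found in both libraries, and with predicted doublets kept the pair was in 54 of 188 cells.

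Ighv1-9 with Igkv1-132 was the leading pair of WT NOD, in 20 of 83 cells, 24.1% (15.4% to 34.7%), and it was also found in 10 of 159 cells of the other, 6.29% (3.06% to 11.3%). All 30 cells were of the IgM or IgD class. Their median Igkc level was 9211.5 UMIs per cell in WT NOD and 14198.5 in the other. None of these cells carried a shared barcode. In all, 7 pairs were found in both libraries, in 33 WT NOD cells, 39.8%, and 24 cells of the other, 15.1%. They included Ighv1-42 with Igkv8-24 in 3 and 7 cells and Ighv1-26 with Igkv8-24 in 4 and 1, for which IgM or IgD was the most frequent class in both libraries. Ighv14-2 with Igkv10-96 was in 2 cells of each library, IgG2c in WT NOD and IgM or IgD in the other.

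The other frequent pairs each belonged to 1 constant class. In WT NOD these were Ighv1-19 with Igkv16-104 in 10 IgM or IgD cells, Ighv1-76 with Igkv12-46 in 9 IgG2c cells, Ighv9-3 with Igkv1-133 in 6 IgG2c cells and Ighv1-9 with Igkv3-4 in 5 IgG2c cells, 1 of which had a barcode found in both libraries. In the other library they were Ighv6-3 with Igkv1-132 in 10 IgG2b cells, Ighv1-42 with Igkv8-24 in 7 IgM or IgD cells and Ighv9-3 with Igkv4-53 in 6 IgG2b cells. Of the 39 WT NOD plasma cells led by Ighv9-3, 3 IgM or IgD cells had Igkv1-132, and most had no leading kappa gene or a pair of 1 cell. Igkv1-133 is a near copy of Igkv1-135, and 2 further WT NOD cells, IgG2c, had Ighv9-3 with Igkv1-135, so the counts do not firmly separate these pairs.

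**Figure D3:**
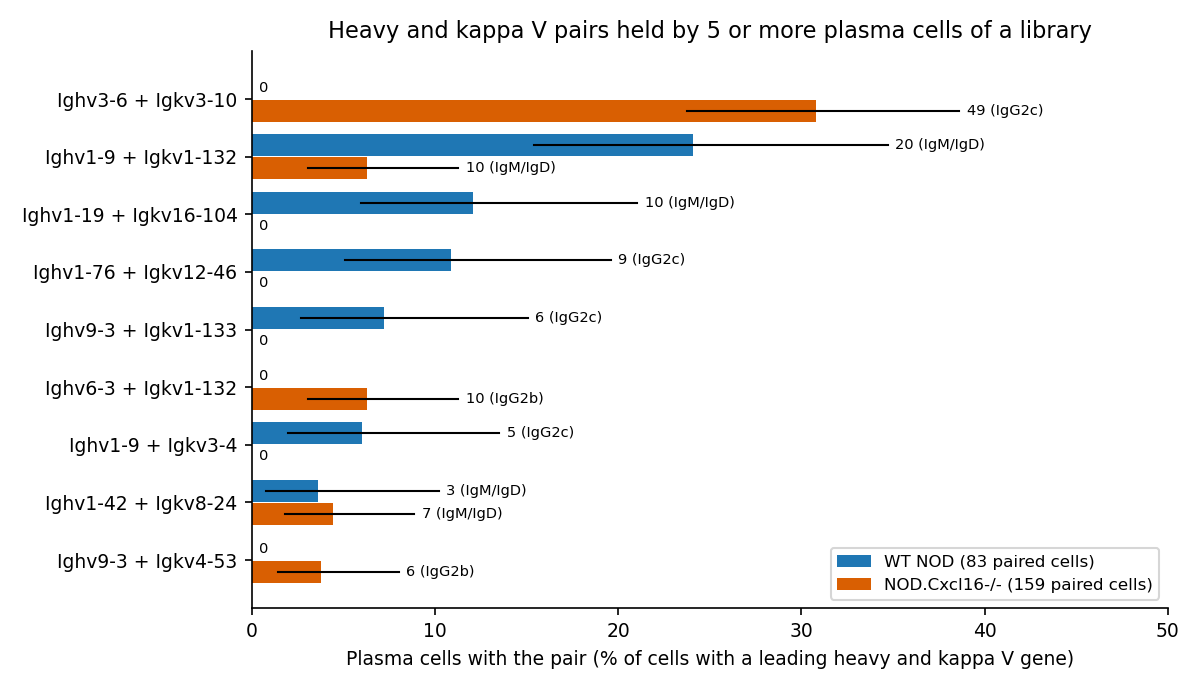
Share of paired plasma cells (horizontal axis, percent of cells with a leading heavy and a leading kappa gene) that held each pair found in 5 or more cells of a library. Bars are the libraries, black lines exact 95% intervals, and the text gives the number of cells and the most frequent constant class, or 0 where no cell had the pair. Ighv3-6 with Igkv3-10 stands at 30.8% in one library and 0 in the other, while Ighv1-9 with Igkv1-132 and Ighv1-42 with Igkv8-24 have bars in both.

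Constant genes give the antibody class of the cells independently of the V genes. A cell was given the class that held at least 2 UMIs and 75% of its heavy constant UMIs. Ighm and Ighd were summed. By this rule, the plasma cells were IgM or IgD in 42.7% (35.3% to 50.3%) and 26.0% (20.9% to 31.8%), IgG2c in 30.9% and 29.8%, IgA in 16.3% and 14.0% and IgG2b in 3.37% (1.25% to 7.19%) and 23.8% (18.8% to 29.4%). B cells were IgM or IgD in 72.0% and 76.0%. No class was given to 22.9% and 14.9% of B cells and to 5.06% and 4.15% of plasma cells. Among the classes with enough cells, IgG2c plasma cells had the lowest effective number of heavy genes. Their effective number of heavy genes was 5.04 (3.69 to 6.87) in WT NOD, where Ighv9-3 led 27 of 53 cells, and 2.93 (2.05 to 4.21) in the other, where Ighv3-6 led 57 of 73. In IgM or IgD plasma cells it was 7.49 (5.90 to 9.50) and 13.3 (10.7 to 16.7), with Ighv1-9 leading 21 of 59 and 13 of 55. The intervals of these classes overlapped in WT NOD. There IgG2c was not the lowest for kappa genes, with 4.93 (3.96 to 6.12) against 4.12 (3.19 to 5.34) in IgM or IgD cells. In the other library the kappa values were 2.28 (1.58 to 3.28) and 8.69 (6.51 to 11.6). In the library labelled NOD.Cxcl16-/-, IgA plasma cells used 14.2 (11.3 to 17.9) heavy genes and IgG2b plasma cells 10.4 (8.20 to 13.1). WT NOD had 7 IgA and 6 IgG2b plasma cells with a leading heavy gene, too few for such a value.

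The lambda genes gave 2 readouts that differed. Iglv1 alone had 30833 UMIs over both libraries, and Iglv3 and Iglv2 had 1927 and 226. At least 1 Iglv1 UMI was found in 91.6% (86.5% to 95.2%) and 88.7% (84.2% to 92.2%) of plasma cells, with medians of 7 and 12 UMIs per cell. When kappa and lambda genes were pooled, Iglv1 led 41 of 68 WT NOD plasma cells with a leading light gene, 60.3% (47.7% to 72.0%), and 30 of 89 in the other library, 33.7% (24.0% to 44.5%). By the lambda constant genes (Iglc1, Iglc2 and Iglc3 against Igkc), however, 1 plasma cell of 178 and 1 of 265 had more lambda than kappa, 0.562% (0.0142% to 3.09%) and 0.377% (0.00955% to 2.08%). In B cells the V readout gave 6 of 152 cells, 3.95% (1.46% to 8.39%), and 3 of 174, 1.72% (0.357% to 4.96%), and the constant readout 6.49% (5.52% to 7.57%) and 3.76% (3.02% to 4.62%), so there the intervals of the readouts overlapped. Cell by cell the readouts matched only in part in B cells. An Iglv UMI was found in 23 of 150 and 18 of 86 B cells that were lambda by the constant genes. It was found in 108 of 2163 and 126 of 2203 that were kappa, a smaller share of a far larger group.

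Iglv1 UMIs were thus found in plasma cells of the kappa kind. Of the plasma cells with a leading kappa gene, 90 of 96 and 161 of 178 had an Iglv1 UMI. Per 1000 Igkc UMIs there were 10.9 and 7.19 Iglv1 UMIs in plasma cells, 1.23 and 0.833 in B cells, and 7.10 and 4.77 in T cells. The same ratio for all kappa V genes together was 11.6 and 8.76 in plasma cells, 16.1 and 11.0 in B cells and 13.6 and 9.10 in T cells. The ratio differed between groups of plasma cells. Among pairs of 2 or more cells it ran from 0.370 Iglv1 UMIs per 1000 Igkc (Ighv1-59 with Igkv6-32) to 71.8 (Ighv14-2 with Igkv10-96 of WT NOD). In the 30 cells with Ighv1-9 and Igkv1-132 it was 1.26 and 0.969, and in the 49 cells with Ighv3-6 and Igkv3-10 it was 4.50. Iglv1 UMIs per Iglc1 UMI were 3.50 and 0.582 in plasma cells and 0.0216 and 0.0240 in B cells. Why Iglv1 was found in these cells was not tested, and its near copy Iglv2 had 153 and 37 plasma cell UMIs.

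**Figure D4:**
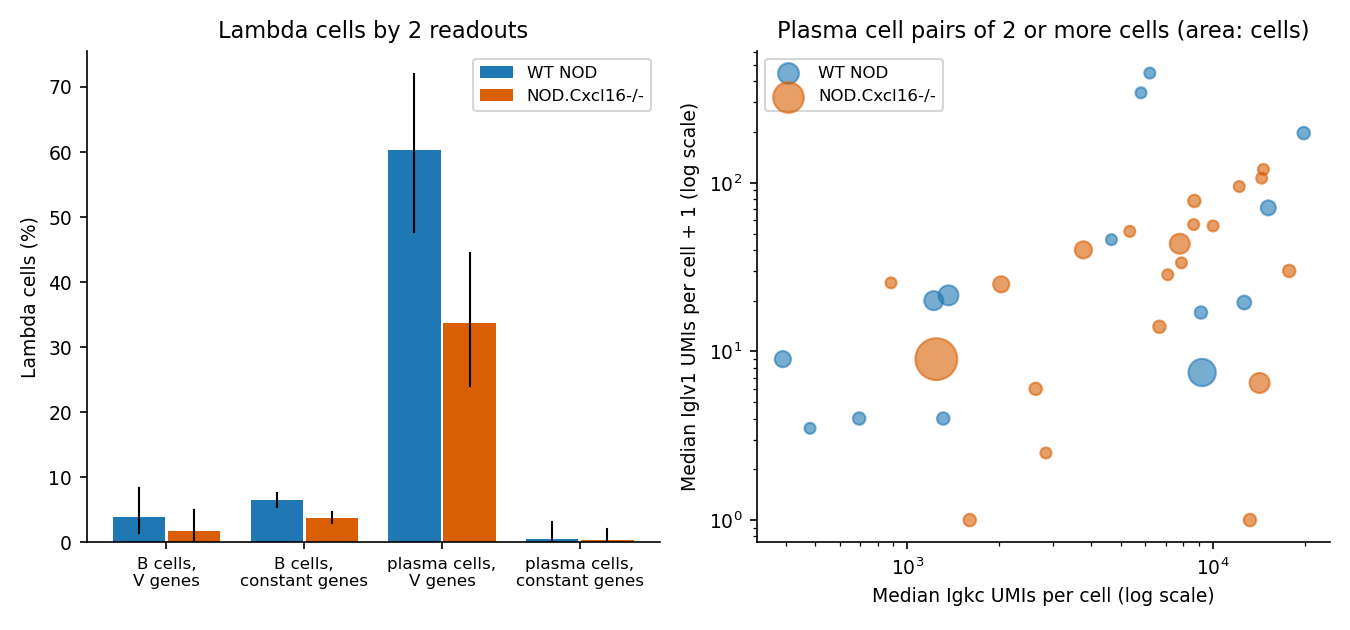
Left, share of lambda cells (percent) by the leading light V gene and by the constant genes, with exact 95% intervals, in each class and library. Right, median Iglv1 UMIs per cell plus 1 against median Igkc UMIs per cell (both log scales) for plasma cell pairs held by 2 or more cells, with point area growing with the number of cells. The V readout reaches 60.3% in WT NOD plasma cells where the constant readout is 0.562%, and pairs with like Igkc levels differ widely in Iglv1.

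Other genes of antibody formation are given from lists of the pathway, as counts past 2-fold without a test. Of the recombination genes, Rag1 and Rag2, which cut DNA for V gene joining, had 0 UMIs in B and plasma cells of both libraries, so neither was detectable at this depth, and Vpreb3 was similar in B cells at 137 and 130 CPM. Of 9 receptor and signalling genes, 0 passed 2-fold in B cells and 2 (Lyn and Cr2) were higher in plasma cells of the library labelled NOD.Cxcl16-/-, near the 26.2% of all genes that were. Of the 13 constant genes, Ighg2b alone was past 2-fold in B cells, at 127 and 798 CPM. By cells, 3.24% (2.56% to 4.05%) and 5.50% (4.61% to 6.52%) of B cells were of the IgG2b class. Whether a few barcodes held most of the Ighg2b UMIs was not tested. In plasma cells 2 of the 12 tested were higher (Ighg3 and Iglc1) and 3 lower (Ighm, Iglc2 and Iglc4), where 26.2% of all genes tested were higher and 1.38% lower. In B cells those shares were 2.95% and 0.342%. Of the 9 antibody secretion genes 0 passed in either class, and none of the 14 J genes had enough UMIs to be tested. The median log2 difference over all genes tested was 0.07 in B cells and 0.59 in plasma cells.

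Some leading genes of plasma cells were also those with the most V UMIs in T cells. The V genes with the most UMIs in T cells were Iglv1 with 45 (32.8 to 60.2), Igkv8-24 with 17 and Igkv1-132 with 16 in WT NOD. In the other they were Iglv1 with 33 (22.7 to 46.3), Igkv6-32 with 11 and Ighv3-8 with 8. Of all T cells, 1 WT NOD cell had a leading heavy gene and 1 a leading kappa gene, 0.0226% each, and none of 3958 did in the other library, which allows up to 0.0932%. The shares of B cells with a leading heavy gene, 6.74% and 6.20%, were far above these, though barcodes with a Cd79a UMI were left out of the T cells by rule.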

How the data were processed

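Live CD45+CD31- islet cells of WT NOD and NOD.Cxcl16-/- mice were measured as 1 droplet library per group. The authors deposited 1 matrix of raw UMI counts per gene and barcode for each library. The reads were processed with Cell Ranger 7.0.1 against mm10, per the submitters' processing notes, and whether intronic reads were counted is not given in the sources used here. From the deposited counts, barcodes with at least 500 genes and at most 10% mitochondrial UMIs were kept, and predicted doublets (0.8% per 1000 barcodes, scored against simulated doublets) were removed.

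A leading V gene had at least 2 UMIs and 75% of a cell's V UMIs of that chain. Effective numbers are exponentials of the Shannon entropy with delta-method intervals, expected gene numbers are analytic, shares have exact Clopper-Pearson intervals and UMI sums exact Poisson intervals, all at 95% and for counting error only. Folds are on log2(CPM + 1) of UMIs summed per class, for genes with at least 10 UMIs. No test was run, since each group is 1 library, and cells are not replicates. Depth was 93553185 and 98681133 UMIs in all.

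Named genes were, per chain, the 8 highest in B cells, the 5 highest in plasma cells of each library, those with at least 10 cells and intervals apart between libraries or between classes, all lambda members, the 5 most frequent pairs held by at least 5 cells, and the 3 highest in T cells. Members and gene lists were chosen with earlier results of these data known. The result of 1 further gene list is not reported here. Alternatives changed the filters, the leading-gene limits, the depth, the class limits and the member minimum. The scripts were tested on simulated data. Python 3.11.15, numpy 2.4.6, scipy 1.17.1, pandas 2.3.3, scikit-learn 1.9.0, biopython 1.88 and matplotlib 3.10.9 were used.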

Additional observations from a re-analysis of the deposited data

Results flagged for a closer look

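The plasma cell share minus the B-cell share had opposite signs in the libraries for 28 genes, out of 78 heavy and 69 kappa members. A gene led by few cells can take either sign by counting alone, so this number does not show a difference. For 4 of the 28 genes at least 10 cells of a class were led and the intervals of the classes lay apart in at least 1 library. For Ighv9-3 the difference was 22.7 percentage points in WT NOD and -1.03 in the library labelled NOD.Cxcl16-/-. For Ighv3-6 it was -2.56 and 19.4, for Igkv3-10 it was -1.30 and 26.4, and for Igkv12-46 it was 0.284 and -9.44. The difference between the libraries was not tested in any of these, as each group is 1 library.

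A leading heavy or kappa V gene was also found in barcodes outside the B, plasma and T cells, in 33 of 3802 barcodes, 0.868% (0.598% to 1.22%), of WT NOD and in 24 of 2811, 0.854% (0.548% to 1.27%), of the other library. In T cells of WT NOD 1 barcode had a leading heavy gene and 1 a leading kappa gene, and none did in the other library. The barcodes outside the classes were all those that failed the class rules. They can thus include B-lineage cells, such as barcodes with 1 Cd79a UMI, whereas T cells held no Cd79a UMI by rule. Which cells these barcodes were was not tested.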

How the results depend on the processing

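No paired analysis was possible because each group holds 1 library. Of 298 values recomputed under other settings for 22 results, 223 moved by less than their counting interval (a count of genes, by less than 1.5 times) and 75 by more. Values are given as WT NOD and then the library labelled NOD.Cxcl16-/-, and the cause of each move was not tested unless stated.

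With a leading-gene minimum of 1 UMI, the effective number was 54.0 and 53.9 for heavy and 39.3 and 38.4 for light genes in B cells, the overlap between libraries in B cells was 82.0% and 81.8% for heavy and light genes, that of B and plasma cells for WT NOD light genes 21.9%, and the lambda share of B cells 13.3% and 12.4%. With 3 UMIs these B-cell values were 22.3 and 20.5 (heavy), 14.1 and 19.4 (light), overlaps 45.7% and 45.6%, and lambda shares 0 and 0, over fewer cells. With UMIs summed, the effective number was 51.2 for WT NOD heavy genes and 37.8 and 34.8 for light genes in B cells and 8.69 and 12.0 for light genes in plasma cells. The library overlaps in B cells were then 77.9% and 79.4%, those of B and plasma cells 55.5% for heavy genes of the second library and 34.1% and 52.0% for light genes, and the lambda shares 11.4% and 11.6% in B cells and 46.7% in plasma cells of the second library. Thinned to 2000 UMIs, B cells gave 15.2 and 19.7 (heavy), 19.4 and 19.4 (light), overlaps 28.7% and 43.2% and a lambda share of 0 in the second library, whose plasma cells gave 17.8 heavy genes.

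Without barcodes holding T-cell or myeloid markers, B cells gave 28.2 and 28.9 heavy genes, 18.2 light genes in the second library, and overlaps of 49.4% and 53.9%. With a member minimum of 100 UMIs they gave 25.2 and 27.1 heavy and 22.9 and 21.9 light genes, and plasma cells of the second library 17.0 heavy genes. WT NOD plasma cells gave 14.7 heavy genes over every barcode and 15.5 with doublets kept. Those of the second library gave 25.6 under stricter class limits and 29.5 without the most frequent pair. Kappa genes alone gave 9.93 and 13.8 light genes in plasma cells, a library overlap of 36.0%, and overlaps of B and plasma cells of 30.9% and 47.5%. Kappa genes alone and thinned gave 17.8 and 19.4 in B cells, 12.4 and 14.6 in plasma cells, and library overlaps of 44.3% and 41.4%. With a minimum of 3 UMIs they gave 14.1 and 19.4, 9.79 and 13.9, library overlaps of 44.2% and 36.2%, and overlaps of B and plasma cells of 21.9% and 48.9%. Constant genes gave lambda shares of 0.562% and 0.377% in plasma cells. With a pseudocount of 5 CPM, 0 V members passed 2-fold in B cells, against 4, and without the barcode of most V UMIs 2 did. Kappa genes alone (with or without another setting), constant genes and leaving out the pair or barcode were chosen after the data were seen.

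No value moved beyond its interval with a leading share of 50% or 90%, without shared barcodes, without a member minimum, or, where computed, with a minimum of 5 UMIs. Under that minimum, and without barcodes holding other markers, 12 values each were not computed, having under 20 cells: the B-cell ones under the former, and all those with plasma cells under the latter. B-cell effective numbers follow the depth and the UMI minimum, so they describe named cells only.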
